A study of Mus musculus with 9 samples.

Results

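A set of 10 cytokine receptor genes were followed in resting regulatory T cells, a CD4-positive lineage defined by the transcription factor Foxp3 and known for restraining other immune cells. The genes encode receptor chains for cytokines other than IL-2: Il4ra, Il7r, Il21r, Il6ra, Il6st, Il27ra, Il10ra, Ifngr1, Il18r1 and Il1rl1. They were taken by symbol from the count table, and all 10 of 10 were found among its 34092 gene rows and passed the filter on low counts, which 14424 genes passed. RNA came from sorted primary mouse cells of the genotypes Foxp3deltaCNS2-gfp (CNS2KO) and Foxp3gfp (WT), both of which carry a green fluorescent protein reporter at Foxp3. The CNS2KO allele also lacks CNS2, a conserved noncoding stretch within the Foxp3 gene that is known for keeping Foxp3 expressed as these cells divide. The labels describe the cells as resting and give neither age, sex, sorting markers nor whether each library came from its own animal, so the p-values measure the spread between these libraries, which may be technical. The comparison used 2 CNS2KO libraries (399 and 408) and 5 WT libraries (398, 402, 405, 1032 and 1037).

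A cytokine receptor is built from a chain that recognises the cytokine and a partner that it often shares with other receptors. Chains for IL-4, IL-7, IL-21, IL-6, IL-27, IL-10 and interferon gamma bind Janus kinases, which phosphorylate Stat transcription factors, and Socs proteins inhibit that step. The chains for IL-18 and IL-33 belong to the IL-1 receptor family and signal through the adaptor Myd88 and Irak kinases instead. Signals such as IL-4, IL-6 and interferon gamma are known to challenge the stability of Foxp3 expression, while IL-10, IL-27 and IL-33 are known to support regulatory T cell function in some tissues.

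Reads on genes ranged from 21427618 to 21836578 in the CNS2KO libraries and from 16557424 to 19154642 in the WT libraries, and values are given as CPM, counts per 1000000 gene reads after TMM scaling. Genes with reads numbered 14639 in CNS2KO 399, the fewest of the libraries used, and 19206 in CNS2KO 408, the most. The WT libraries lay between, at 14810 to 18255. Foxp3 stood at 452 ± 15.9 CPM in CNS2KO (SD, n = 2) and 488 ± 78.9 CPM in WT (SD, n = 5), and all 9 regulatory T cell markers listed, among them Il2ra and Cd4, were read in every library. Among markers of other cells, the myeloid list (7 of 11 members tested) summed to 95.7 and 99.9 CPM in CNS2KO, above the 65.4 to 92.3 CPM in WT. Most of this sum was Cst3, at 55.65 and 71.15 CPM in CNS2KO and 45.9 to 69.4 CPM in WT. Lyz2 (16.7 and 10.1 CPM in CNS2KO, 0.182 to 9.26 CPM in WT) and Cd68 were above every WT library in both CNS2KO libraries. Csf1r (6.425 and 8.56 CPM in CNS2KO, 3.94 to 13.1 CPM in WT) and Itgam (0.236 and 4.69 CPM in CNS2KO, 1.40 to 4.985 CPM in WT) had negative fold changes. The other 5 of the 7 tested members had positive ones. Csf3r stood at 9.59 CPM in CNS2KO 399 and at most 0.43 CPM elsewhere, and S100a9 had 2 reads in all. The erythroid list (5 of 7 tested) summed to 156 CPM in CNS2KO 399 and 31.4 CPM in CNS2KO 408, against 6.84 to 27.6 CPM in WT. The B cell list (6 of 7 tested) summed to 980.5 to 1156 CPM in CNS2KO and 1063 to 1362 CPM in WT, most of it Ighm, and the CD8 T and NK list (7 of 8 tested) to 68.0 to 87.4 CPM in CNS2KO and 68.1 to 81.5 CPM in WT, with Ncr1 at 0. The list for innate lymphoid and mast cells (3 of 7 tested) summed to 42.6 to 49.2 CPM in CNS2KO and 38.3 to 53.9 CPM in WT, most of it Rora, with Mcpt4 at 0. In such bulk samples, fewer cells with a transcript and less of it per cell cannot be told apart.

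Between CNS2KO and WT, none of the 10 receptors passed edgeR's quasi-likelihood test at an FDR of 0.05, and 0% of all genes tested did. Fold changes were positive in 4 receptors and negative in 6, with a median log2 of -0.03, which was also the median over all genes tested. The sole receptor with an unadjusted p under 0.05 was Il6ra, 1 of 10, where 2.5% of all genes tested had one (361 genes). That count was 0 of 10 without CNS2KO 399 and likewise without WT 398, 402, 1032 or 1037, with no filter on low counts, with WT numbers of 3 digits only and with the length trend removed. Without CNS2KO 408 it was 2 of 10, and 1676 of 15797 genes had an unadjusted p under 0.05. Il6ra, again 1 of 10, was also the single receptor whose values in CNS2KO 399 and 408 were under all 5 WT values, a pattern seen in 3% of all genes tested. The opposite pattern, both over all 5 WT values, was seen in 0 of the 10 receptors and in 3.76% of all genes tested. By DESeq2 and by limma-voom, 0 receptors and 0 genes passed the same FDR.

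**Figure D1:**
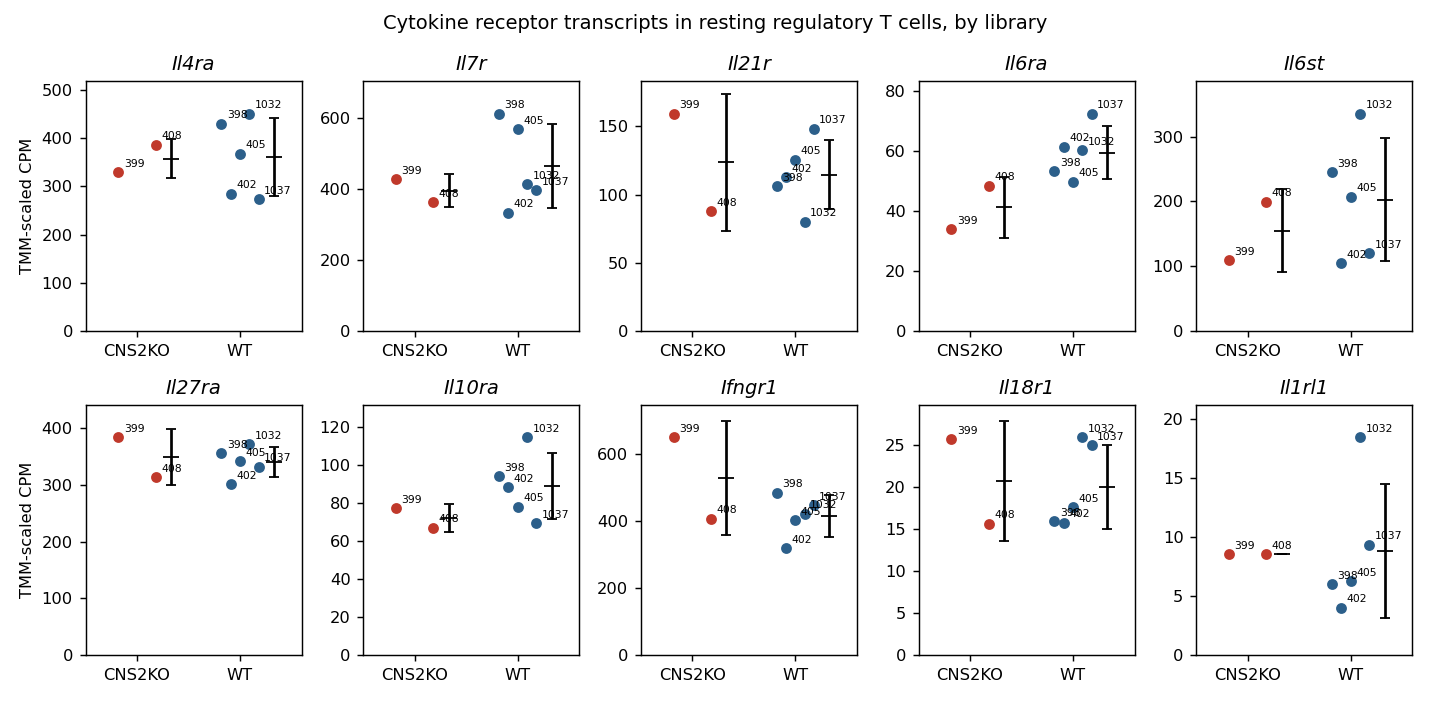
TMM-scaled CPM of the 10 receptor genes (vertical axes from 0, one scale per gene) in the CNS2KO libraries (red) and the WT libraries (blue), each labelled with its number; black bars are the group mean and SD. The 2 CNS2KO values of Il6ra, 34.1 and 48.6 CPM, lie below all 5 WT values, and in the other 9 panels the groups overlap.

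The first group of receptors pairs with the common gamma chain encoded by Il2rg. Il4ra, the IL-4 binding chain, stood at 329 and 386 CPM in CNS2KO 399 and 408, against 430, 285, 368, 450 and 274 CPM in WT 398, 402, 405, 1032 and 1037. Both CNS2KO values lay well inside the WT range, with a log2 fold change of -0.02 (SE 0.22, 95% interval -0.49 to 0.46). Il7r, the IL-7 receptor chain that serves T cell survival and is typically low on regulatory T cells, stood at 428 and 363 CPM in CNS2KO and at 612, 333, 568, 414 and 397 CPM in the WT libraries in the same order. WT 398 and 405 were high, and CNS2KO 408 exceeded only WT 402. A log2 fold change of -0.23 (SE 0.23, 95% interval -0.74 to 0.28) was fitted to Il7r, -0.35 without CNS2KO 399 and -0.13 without CNS2KO 408. Il21r, the IL-21 receptor, stood at 159 and 88.0 CPM in CNS2KO and at 106, 113, 126, 80.1 and 148 CPM in WT. CNS2KO 399 was the highest of the 7 libraries for Il21r and CNS2KO 408 the second lowest, so the groups overlapped fully. The log2 fold change of Il21r was 0.11 (SE 0.27), and it turned to -0.37 without CNS2KO 399 and stood at 0.47 without CNS2KO 408. The partner Il2rg stood at 1269 ± 248.5 CPM in CNS2KO and 1302 ± 144 CPM in WT (SD, n = 2 and 5), with -0.04 as its log2 fold change (SE 0.16). Il13ra1, the partner of Il4ra in the alternative IL-4 receptor, was barely read, with 0 and 0.239 CPM in CNS2KO against 0 to 2.29 CPM in WT.

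The second group signals through gp130, the product of Il6st, or a related chain. Il6ra, the IL-6 binding chain, stood at 34.1 CPM in CNS2KO 399 and 48.6 CPM in CNS2KO 408, against 53.4, 61.5, 49.9, 60.5 and 72.6 CPM in WT 398, 402, 405, 1032 and 1037. CNS2KO 408 lay just below WT 405, the lowest WT library, and CNS2KO 399 lay far below it. Il6ra had a log2 fold change of -0.53 (SE 0.24, 95% interval -1.05 to -0.0017), with an adjusted p of 0.9999 by edgeR. The 2-sided exact permutation test of Il6ra gave p = 0.048, the smallest that the 21 assignments of 7 libraries allow, and 10 such tests were made, 1 per receptor. Without CNS2KO 399 the log2 fold change of Il6ra was -0.29, and without CNS2KO 408 it was -0.81. Monocytes and other myeloid cells also express Il6ra, and values of myeloid markers are given above. The part of such cells in the value of Il6ra was not tested.

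Il6st stood at 109 and 200 CPM in CNS2KO and at 245, 105, 208, 335 and 120 CPM in WT. CNS2KO 399, WT 402 and WT 1037 were all low, WT 1032 was highest, and the genotypes overlapped. For Il6st the log2 fold change came to -0.39 (SE 0.41, 95% interval -1.29 to 0.51), and it was -0.02 without CNS2KO 399 and -0.90 without CNS2KO 408. Il27ra, the IL-27 binding chain that pairs with gp130, stood at 384 and 314 CPM in CNS2KO and at 357, 301, 342, 372 and 332 CPM in WT. It was the steadiest receptor, with its highest library 1.28 times its lowest, and the 95% interval of its log2 fold change of 0.03 ran from -0.31 to 0.38. Without CNS2KO 399 this value was -0.11, and without WT 402 it was -0.0078.

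The third group holds the class II receptor chains. Il10ra, the IL-10 binding chain, stood at 77.2 and 66.8 CPM in CNS2KO and at 94.0, 88.2, 78.0, 114 and 69.1 CPM in WT. CNS2KO 408 was the lowest of the 7 libraries, but CNS2KO 399 exceeded WT 1037. Its fold change on the log2 scale was -0.30 (SE 0.23, 95% interval -0.79 to 0.19), with -0.41 without CNS2KO 399 and -0.21 without CNS2KO 408. The partner chain Il10rb stood at 175 and 130 CPM in CNS2KO and 116 to 160 CPM in WT, a log2 fold change of 0.16 (SE 0.19). Ifngr1, the binding chain of the interferon gamma receptor, stood at 651 and 408 CPM in CNS2KO and at 486, 319, 404, 423 and 448 CPM in WT. CNS2KO 399 was above every other library, and CNS2KO 408 was inside the WT range. For Ifngr1 the log2 fold change came to 0.35 (SE 0.21, 95% interval -0.10 to 0.80), 0.64 without CNS2KO 408 and -0.02 without CNS2KO 399. The second chain, Ifngr2, stood at 48.5 and 74.1 CPM in CNS2KO and 39.5 to 79.1 CPM in WT (log2 fold change 0.10, SE 0.32), so CNS2KO 399 was not the high library for it. CNS2KO 399 was also the library with the most erythroid marker reads; the part of these in its Ifngr1 value was not tested.

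The fourth group belongs to the IL-1 receptor family. Il18r1, the IL-18 binding chain, stood at 25.7 and 15.6 CPM in CNS2KO and at 15.96, 15.78, 17.6, 25.9 and 25.0 CPM in WT. CNS2KO 399, WT 1032 and WT 1037 were high and the other 4 libraries low, with both genotypes in each. Its fitted log2 fold change, 0.04 (SE 0.33, 95% interval -0.68 to 0.77), was -0.35 without CNS2KO 399 and 0.35 without CNS2KO 408. Il1rl1, which encodes the IL-33 receptor ST2 of tissue regulatory T cells, stood at 8.55 and 8.56 CPM in CNS2KO and at 5.99, 4.005, 6.26, 18.4 and 9.35 CPM in WT. WT 1032 had 4.61 times the level of WT 402, while the 2 CNS2KO values were nearly equal and inside that range. Its log2 fold change of -0.04 had the widest 95% interval of the receptors, from -1.28 to 1.19, and without WT 1032 it was 0.42. The partner chains Il18rap (6.33 and 6.26 CPM in CNS2KO, 1.33 to 9.01 CPM in WT) and Il1rap (17.4 and 40.2 CPM in CNS2KO, 16.9 to 31.3 CPM in WT) had log2 fold changes of 0.17 (SE 0.66) and 0.38 (SE 0.37).

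**Figure D2:**
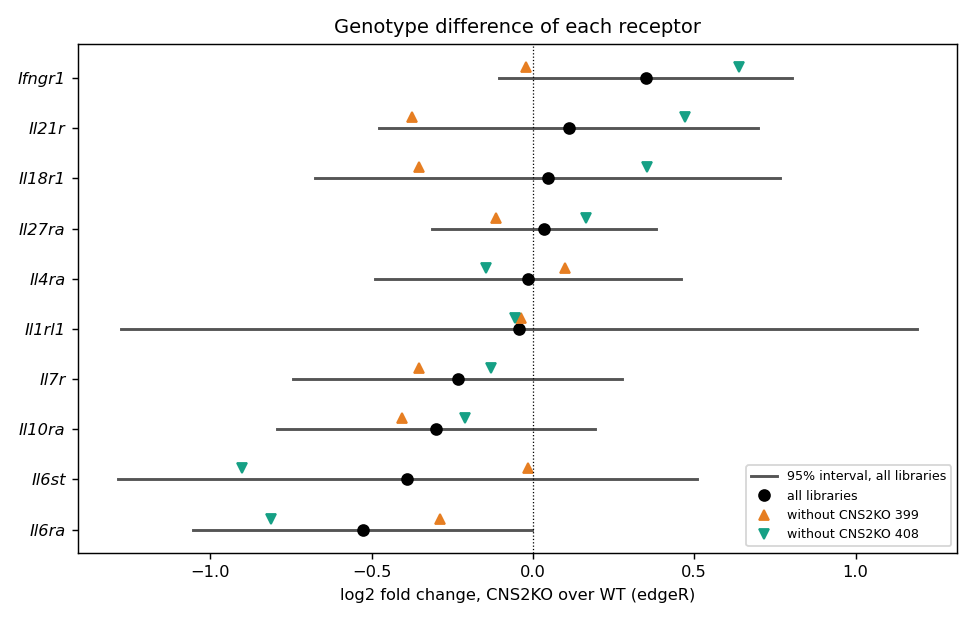
Log2 fold change of CNS2KO over WT for each receptor (black points) with its 95% interval from edgeR's fit to all 7 libraries, and the values without CNS2KO 399 or without CNS2KO 408 (triangles). The interval of Il6ra ends at -0.0017 and those of the other 9 receptors include 0; Il21r, Il18r1, Il27ra, Il4ra and Ifngr1 have triangles on both sides of 0.

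Promoter windows were available for 8 of the 10 receptors, which with alternative starts gave 11 windows of 300 bases (250 before the gene's start and 50 after). They were searched for TTCNNNGAA, a palindrome known as the binding motif of Stat proteins, which reads the same on both strands. It occurred in 2 of the 11 windows, against 8.3% of the 32851 windows of all genes: once in that of Il7r, 142 bases before the start, and 2 times in the third window of Il18r1, first 219 bases before the start. Il6ra, the receptor whose genotypes did not overlap, held none in its window. The windows of Il6st, Il6ra, Il4ra and Ifngr1 were GC-rich, at 68.3%, 66%, 62% and 60.3%, and that of Il7r had 45.7%, against a median of 52.7% over all windows. The 150 bases nearest the start are shown for Il6ra, the receptor without overlap, and for Il7r, with 1 match near its start, from RefSeq on GRCm38.p6, with the match in capitals and each given 5′ to 3′ on the gene's strand. A match is a description of the letters and not of binding. For Il7r, the end of its window after the RefSeq start was not found in a GENCODE M21 transcript of the gene, as it was for the other 10 windows, so the distance holds for the RefSeq start.
Il6ra (chr3:89913197-89913346, minus strand): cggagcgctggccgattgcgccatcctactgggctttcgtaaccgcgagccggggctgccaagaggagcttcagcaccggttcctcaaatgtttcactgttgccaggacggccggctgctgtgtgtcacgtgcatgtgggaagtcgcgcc
Il7r (chr15:9529877-9530026, minus strand): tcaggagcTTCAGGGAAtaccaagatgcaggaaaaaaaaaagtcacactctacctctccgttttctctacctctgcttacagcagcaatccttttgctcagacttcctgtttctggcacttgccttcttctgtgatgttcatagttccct

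Levels of different receptors were compared per kilobase of exon, over the coding transcripts of GENCODE M21, which is not the annotation the authors counted with. Ifngr1 had the highest level, at 251 ± 81.4 CPM per kilobase in CNS2KO (SD, n = 2) and 197 ± 29.6 CPM per kilobase in WT (SD, n = 5). Il7r and Il27ra followed, at 112 ± 12.9 and 131 ± 18.7 CPM per kilobase in CNS2KO and at 131 ± 33.7 and 128 ± 10.1 CPM per kilobase in WT. These 2 did not differ beyond their spread: Il7r was the higher in 2 of 5 WT libraries and in 0 of 2 CNS2KO libraries. Il4ra was next in WT, at 68.0 CPM per kilobase, then Il21r at 45.1, Il10ra at 25.4 and Il6st at 18.3, each overlapping the next over the WT libraries. In CNS2KO they averaged 67.3, 48.6, 20.6 and 14.0 CPM per kilobase, and Il21r exceeded Il4ra in CNS2KO 399. Il6ra at 4.78 CPM per kilobase in CNS2KO and 6.89 in WT, Il18r1 at 4.30 in CNS2KO and 4.16 in WT, and Il1rl1 at 1.24 in CNS2KO and 1.28 in WT were the lowest, and these 3 levels did not overlap each other over the WT libraries. In CNS2KO 399, however, Il18r1 at 5.35 CPM per kilobase exceeded Il6ra at 3.94. The level of Il6st exceeded that of its partner Il6ra in 5 of 5 WT and 2 of 2 CNS2KO libraries. With each gene's longest coding transcript as the length, the order of the WT means was the same, while in CNS2KO the mean of Il18r1 was 4.98 and that of Il6ra 4.78 CPM per kilobase.

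**Figure D3:**
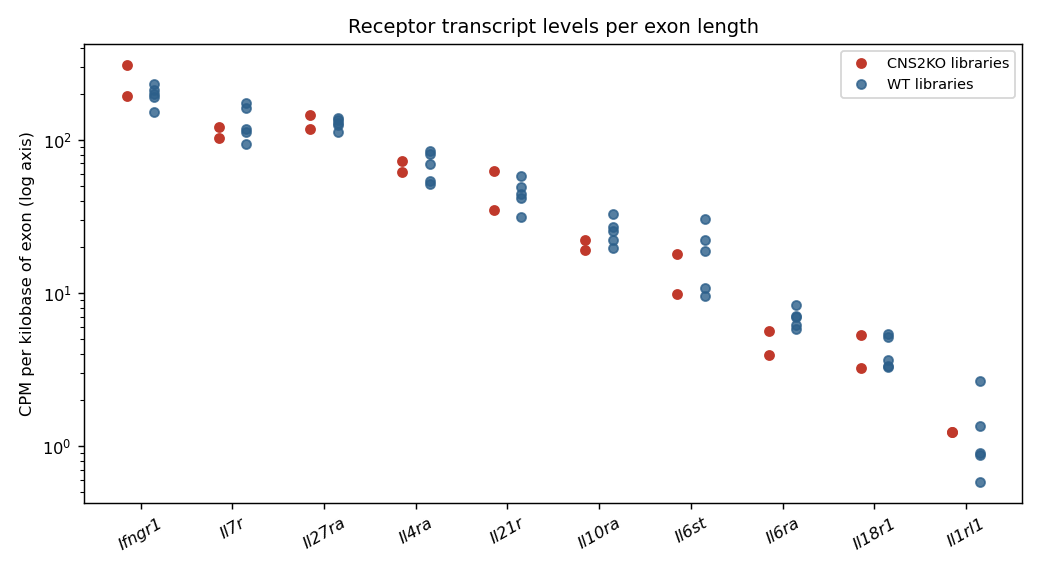
CPM per kilobase of exon (log axis) of each receptor in the CNS2KO libraries (red, left of each pair) and the WT libraries (blue, right), in order of the WT mean. Levels run from 197 CPM per kilobase for Ifngr1 to 1.28 for Il1rl1 in WT, and the gaps below Il27ra, Il6st, Il6ra and Il18r1 are free of overlap between WT libraries.

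The receptors did not move as a block across libraries. WT 1032 was the highest of the 7 libraries for 5 receptors (Il4ra, Il6st, Il10ra, Il18r1 and Il1rl1) and the lowest for Il21r. WT 402 was the lowest for 5 (Il6st, Il7r, Il27ra, Il1rl1 and Ifngr1), and CNS2KO 399 was the highest for Il21r, Il27ra and Ifngr1 and the lowest for Il6ra. CNS2KO 408 was the lowest for Il10ra and Il18r1 and the highest for 0. The SD of log2 CPM over the 7 libraries had a median of 0.34 among the receptors and 0.32 among 8672 genes with a mean log2 CPM above 3.

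Il4ra and Il21r are next to each other among the coding genes of mouse chromosome 7, and Il1rl1 lies beside Il18r1 on chromosome 1, with Il18rap beyond it. The first pair ran in opposite directions in several libraries: WT 1032 was highest for Il4ra and lowest for Il21r, and WT 1037 was lowest for Il4ra and second highest for Il21r. In the second pair WT 1032 was highest for both. GENCODE M21 places Gm44876, Gm42809, Gm20612 and Palm3 over parts of Il4ra, Il6ra, Il10ra and Il27ra on the opposite strand, and strand use in counting was not given, so reads from overlapping genes could not be separated.

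Il1rl1, Il6st and Il21r varied most, with SDs of log2 CPM of 0.68, 0.65 and 0.37 over the 7 libraries, and among 7743 genes compared the 3 nearest in centred log2 CPM were named for each. For Il6st these were the calcium channel gene Itpr1, the nuclear exporter Xpo5 and the splicing helicase Snrnp200, with root mean square differences of 0.10, 0.11 and 0.12 over 7 libraries. Their longest transcripts measured 9.87, 5.08 and 6.75 kb, and that of Il6st 8.68 kb, against a median of 2.94 kb over the tested genes. Itpr1 stood at 26.5 and 52.4 CPM in CNS2KO and at 61.1, 30.9, 57.0, 89.1 and 34.8 CPM in WT, with the same low libraries as Il6st. For Il21r the nearest were Fsd2, Dph5 and Ict1 (differences of 0.09, 0.10 and 0.11), and for Il1rl1 the mitotic kinesin Kif20a, BC002230 and Rdh12 (0.20, 0.27 and 0.28). Kif20a stood at 41.0 and 51.2 CPM in CNS2KO, against 84.5 CPM in WT 1032 and 23.5 to 46.5 CPM in the other WT libraries.

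Transcript length moved with these library values. Genes with a mean log2 CPM above 3 were grouped by the longest transcript. Among 2569 genes of at least 4.43 kb, the median deviation from the WT mean was -0.20 (log2) in CNS2KO 399, -0.12 in WT 402 and -0.13 in WT 1037, and it was 0.14 in WT 1032 and 0.15 in WT 398. Among 1384 genes of at most 1.62 kb it was 0.30, 0.20 and 0.24 in CNS2KO 399, WT 402 and WT 1037, and -0.15 and -0.17 in WT 1032 and 398. Il6st deviated the same way as the long genes in all of these libraries and by more, at -0.76, -0.81 and -0.62 in CNS2KO 399, WT 402 and WT 1037 and 0.86 and 0.41 in WT 1032 and 398. Il6ra, with a longest transcript of 8.64 kb, was low in CNS2KO 399 but not in WT 402 or WT 1037, where it deviated by 0.06 and 0.30. Il4ra deviated by -0.11, -0.31 and -0.37 in CNS2KO 399, WT 402 and WT 1037, and by 0.35 and 0.28 in WT 1032 and 398. Its signs there were those of the long genes. Il21r deviated by 0.50, 0.005, 0.40, -0.49 and -0.08 in these libraries in turn, with the signs of the short genes. In WT 405, Il21r deviated by 0.16 and the short genes by -0.03. With each library's trend with length removed, a fit chosen after seeing the data, limma gave log2 fold changes of -0.19 for Il6st and -0.41 for Il6ra, and 0 receptors passed the FDR of 0.05.

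**Figure D4:**
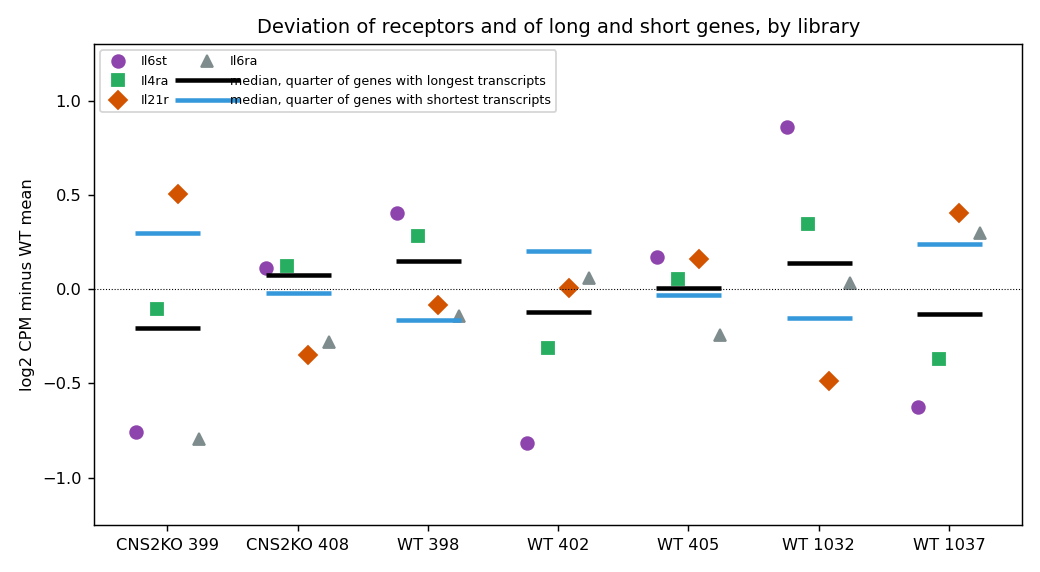
Log2 CPM minus the WT mean for Il6st, Il4ra, Il21r and Il6ra in each library, with the median of the genes with the longest (at least 4.43 kb, black lines) and shortest (at most 1.62 kb, blue lines) transcripts. Long genes and Il6st are both below 0 in CNS2KO 399, WT 402 and WT 1037, and Il6ra is above 0 in WT 402 and WT 1037.

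The genes around the receptors in their pathways were counted in the same fit, and 0 passed the FDR of 0.05 in any of these lists. Of 15 Janus kinases, Stats and adaptors, 7 had positive and 8 negative fold changes (median -0.04). Jak2, a kinase used by the interferon gamma and IL-6 receptors, stood at 66.6 and 69.2 CPM in CNS2KO and 46.1 to 56.1 CPM in WT (log2 fold change 0.40, SE 0.20), and Stat4, which acts downstream of IL-12, at 238 and 271 CPM in CNS2KO and 154 to 228 CPM in WT (0.36, SE 0.18). The CNS2KO libraries lay above every WT library in these 2 of the 15, against 3.76% of all genes tested. They lay below in 1, against 3% of all genes tested: Irak1, a kinase of the IL-1 receptor family pathway, at 47.1 and 52.22 CPM in CNS2KO and 52.23 to 70.0 CPM in WT (-0.32, SE 0.21), where CNS2KO 408 and WT 398 were nearly equal. These 3 genes had the smallest p-values of the list. Of 12 feedback inhibitors, 6 were positive and 6 negative (median 0.08), and in 3 both CNS2KO libraries lay above every WT library, where 3.76% of all genes tested did. Socs2 stood at 63.5 and 86.9 CPM in CNS2KO and 38.8 to 60.5 CPM in WT (0.57, SE 0.23). Socs3, the inhibitor that binds gp130, stood at 48.9 and 39.3 CPM in CNS2KO and 23.7 to 38.8 CPM in WT (0.39, SE 0.25), with CNS2KO 408 just above the highest WT library. Socs5 had 4.11 and 21.4 CPM in CNS2KO and 18.6 to 27.9 CPM in WT (-0.83, SE 0.50).

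Of 18 response genes of these cytokines, 8 were positive and 10 negative (median -0.22). The interferon-inducible GTPase genes Gbp2 and Ifi47 stood at 656 and 566 CPM and at 1373 and 1068 CPM in CNS2KO, against 354 to 506 and 770 to 1021 CPM in WT, with log2 fold changes of 0.54 (SE 0.18) and 0.48 (SE 0.16). Batf, a transcription factor of the AP-1 family, stood at 64.5 and 50.9 CPM in CNS2KO and 32.5 to 54.0 CPM in WT (0.43, SE 0.24). Both CNS2KO libraries lay above all WT libraries in 2 of the 18, Gbp2 and Ifi47, against the 3.76% of all genes given above. Among 12 tested of 18 other cytokine receptors, 8 were positive and 4 negative (median 0.30), with the IL-17 receptor gene Il17ra at 0.39 (SE 0.29), the type I interferon receptor gene Ifnar2 at -0.25 (SE 0.22) and the IL-12 receptor gene Il12rb2 at -0.82 (SE 0.73). The list of 7 partner chains had 5 positive and 2 negative fold changes (median 0.16). It included the IL-2 receptor beta chain gene Il2rb, which is not a partner of the 10 receptors. Il2rb stood at 964.5 and 1156 CPM in CNS2KO and 752 to 1134 CPM in WT (0.20, SE 0.18).

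Of 11 cytokine genes for these receptors, 7 had too few reads to be tested and 4 were tested, all with negative fold changes (median -0.30). Il10 stood at 0 and 0.861 CPM in CNS2KO and at 1.74, 3.34, 0.56, 1.40 and 6.31 CPM in WT, so that CNS2KO 408 exceeded WT 405 and the log2 fold change of -2.61 carried an SE of 1.54. Ebi3, a subunit of IL-27 and IL-35, stood at 5.15 and 4.30 CPM in CNS2KO and 0.667 to 9.97 CPM in WT, and Ifng at 1.89 and 2.29 CPM in CNS2KO and 0.993 to 4.005 CPM in WT. Il13 and Il21 had 0 reads in all 7 libraries, which allows up to 0.142 to 0.182 CPM per library at 3 counts, a limit that covers counting error only. Il33, picked out after its values were seen, had 92 reads (4.35 CPM) in CNS2KO 399 and at most 1 read in any other library.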

How the data were processed

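SMARTer chemistry amplified the RNA, which an Ion Proton instrument sequenced, per the labels' protocols. STAR, BWA, edgeR and mm9 stand in the submitters' processing notes. Which tool counted reads, and whether by strand, was not given. One deposited table holds read counts, not normalized, 1 row per symbol, and another holds log2 values that the authors scaled by a method not given. Of the 9 value columns per table, 2 share the number 407, given in the labels to 1 WT and 1 CNS2KO sample, hold identical values and were left out, so 5 of 6 WT and 2 of 3 CNS2KO samples entered. Another table, with 1 signed value per gene, was not used. The 5 summary rows were left out of totals.

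Counts were compared in R 4.3.3 with edgeR 4.0.16 (filterByExpr, TMM, quasi-likelihood test, Benjamini-Hochberg over 14424 genes, FDR 0.05). SE is the fold change over the root of F. Deviations use log2 CPM with a prior count of 2. Exact permutation tests used scipy 1.17.1. Pairs of libraries differed by a chi-square of at least 23.8 per degree of freedom, so no pair agreed within sampling noise. The tests were checked on simulated counts. Alternatives were other scalings, filters, limma 3.58.1, DESeq2 1.42.0, WT numbers of 3 digits only and each library left out. The libraries left out by the 3-digit setting, WT 1032 and 1037, have column names that begin with R. Those of all other libraries used, CNS2KO and WT, begin with YI, and the meaning of these prefixes was not given. The receptors and lists were chosen with earlier results of these data known. All receptors and partner chains were named, and of each other pathway list the 3 genes with the smallest p. Transcript lengths from GENCODE M21 matched 97.3% of tested genes by symbol or synonym.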

Additional observations from a re-analysis of the deposited data

How the results depend on the processing

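Calls were counted under the alternatives other than the authors' log2 values, where fold changes alone were taken. There the count of receptors past an FDR of 0.05 was 0, also at an FDR of 0.1, and the count of genes was 0 with 1 exception: when the low-count filter was dropped, 8 genes passed. The median log2 fold change of the receptors ranged from -0.20 to 0.04 with 1 library left out. Il6ra, Il6st, Il7r and Il10ra kept a negative sign in all fits, Il6ra between -0.81 and -0.29. The 159 fits of all 10 receptors held 20 sign changes, every one of them in the other receptors. They numbered 6 in Il4ra, 5 in Il1rl1, 4 in Il18r1, 3 in Il27ra and 1 each in Il21r and Ifngr1. With 1 library left out, Il4ra ranged from -0.15 to 0.10, Il18r1 from -0.35 to 0.35 and Il21r from -0.37 to 0.47. In the same fits Il27ra ranged from -0.11 to 0.16, Il1rl1 from -0.23 to 0.42 and Ifngr1 from -0.023 to 0.64. Without scaling beyond totals Il18r1 stood at -0.0086 and Il27ra at -0.025, and the median of all genes was -0.08, against -0.03 with TMM. By limma-voom Il4ra stood at 0.0052 and Il1rl1 at 0.15, on the authors' deposited log2 values at 0.011 and 0.17, and after removing the length trend at 0.072 and 0.22. With WT numbers of 3 digits only, Il1rl1 stood at 0.66. The cause was not tested. With 1 CNS2KO library left, it is assumed to vary as the WT libraries do. The 95% intervals limit what 2 CNS2KO libraries can show: for Il27ra, log2 changes beyond -0.31 to 0.38, and for Il1rl1 beyond -1.28 to 1.19. No paired analysis was possible because the labels give the genotypes 1 number in common.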

Other observations

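Dixon's test for a lone outlying value was applied to the WT libraries of 44 genes and singled out 0, against about 1 in 20 by chance. Those tested were the receptors, Foxp3, Il2ra, Cd4, the partner chains, the pathway genes named for their small p and the genes nearest Il6st, Il21r and Il1rl1. Markers of other cells and Il33 were left out. Among these, Ighm stood at 1308 CPM in WT 1037 and 1007 to 1055 CPM in the other WT libraries, which was not tested.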
